A study of Mus musculus with 4 samples.

Results

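Neurons with the early transcripts of the ventromedial hypothalamus (VMH) were described here in the developing arcuate nucleus (ARC) of the mouse. VMH-like neurons were the cells with at least 1 unique molecular identifier (UMI, 1 captured RNA molecule) of Fezf1 or Nr5a1, at least 2 UMIs of the neuronal gene Stmn2 and under 3 UMIs of Pomc. Of 6465 barcodes, 6351 were kept as cells, 4006 of these were neurons by the Stmn2 limit, and 551 neurons were VMH-like. This is 13.8% of the neurons, with an exact binomial (Clopper-Pearson) 95% interval of 12.7% to 14.9%. All intervals given here cover counting error only.

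The cells came from GFP-positive ARC tissue dissected at E15 (E15.5 in the sample titles) from 6 Pomc-eGfp embryos on a C57BL/6 background, in which a Pomc transgene drives GFP. The labels name no treatment, all embryos carried the transgene, and they were pooled into 1 droplet library read in 4 sequencing runs, so there is no replicate, no control group and no test. The study asked which regulators mark the developing neuronal types of the ARC, and Sox14, described in detail here, was among the genes it followed. Dissection followed GFP and not a boundary between nuclei, and the counts do not say where a cell lay in the tissue.

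The VMH lies just dorsal to the ARC, is mostly glutamatergic in the adult, and is known for roles in energy balance, glucose control, defence and mating. Nr5a1 (also called SF-1) is a nuclear receptor needed to form the nucleus, and Fezf1 is a zinc finger factor needed for its neurons to develop. Both nuclei arise from the Nkx2-1-positive ventral hypothalamus, so neurons that carry VMH factors can lie close to ARC neurons in a dissection of this kind.

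VMH-like neurons were detected by few molecules each. Fezf1 alone was found in 261 of them, Nr5a1 alone in 195 and both in 95. Fezf1 had 1 UMI in 195 cells, 2 in 86 and at least 3 in 75, with a highest count of 9. Nr5a1 was thinner, with 1 UMI in 233 cells, 2 in 45 and at least 3 in 12. These counts are what chose the cells and are given as a description. Among 260 vascular and mesenchymal cells, which should lack both genes, 3 had a Fezf1 UMI and none had an Nr5a1 UMI (0 of 260), at a median of 3982.5 UMIs a cell against 4067 in VMH-like neurons. The other 3455 neurons had a median of 3336 UMIs, so VMH-like neurons were the deeper group.

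The name was checked against the markers that the rule did not use, which are Sox14, Nr2f2 and Adcyap1. No marker of these was found in 73 of the 551 VMH-like neurons (13.2%), 1 in 253, 2 in 207 and 3 in 18. Of the other neurons, 67.6% had none and 8 cells had 3. Nr2f2 is also a vascular gene, and 65.4% of the vascular and mesenchymal cells had 1 of the markers, so it is Sox14 that separates VMH-like neurons from these cells. These markers were chosen with results of these data known, so the values describe the cells and do not support the name. Esr1, the estrogen receptor of adult ventrolateral VMH neurons, had no UMI in VMH-like neurons and 40 UMIs in the other neurons. A count of 0 of 551 allows up to 0.544% of cells with a UMI (3 cells, against 1.15% for 0 of 260), and does not limit how many cells express a gene.

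For the transcription factor genes that this description turns on, the DNA just upstream of the start site is shown, so that it can be set beside the levels. Sequences are from RefSeq on GRCm38.p6, 5′ to 3′ on the strand of the gene, and end before the first annotated exon base. They lie at chr6:23248363-23248514 (minus strand) for Fezf1, chr9:99876171-99876420 (minus) for Sox14, chr2:147186456-147186652 (minus) for Nkx2-2, chr2:147085446-147085595 (minus) for Nkx2-4 and chr10:52022252-52022501 (plus) for Vgll2. Capitals mark CACTTGA, an NK2 homeodomain motif, in Nkx2-2, and CCATTGT, which is the SOX motif ACAATGG on the other strand, in Nkx2-4.
Fezf1: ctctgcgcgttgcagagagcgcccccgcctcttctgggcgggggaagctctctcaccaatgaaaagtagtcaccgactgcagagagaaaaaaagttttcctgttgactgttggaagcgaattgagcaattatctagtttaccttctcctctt
Sox14: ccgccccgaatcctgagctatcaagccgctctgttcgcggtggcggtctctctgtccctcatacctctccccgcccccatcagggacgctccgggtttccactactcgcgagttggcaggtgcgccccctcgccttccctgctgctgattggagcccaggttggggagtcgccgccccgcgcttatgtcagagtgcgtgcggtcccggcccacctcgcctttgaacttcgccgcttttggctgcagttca
Nkx2-2: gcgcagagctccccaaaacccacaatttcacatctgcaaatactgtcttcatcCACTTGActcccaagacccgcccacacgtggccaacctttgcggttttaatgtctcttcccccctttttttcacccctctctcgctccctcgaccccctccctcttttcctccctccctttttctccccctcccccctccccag
Nkx2-4: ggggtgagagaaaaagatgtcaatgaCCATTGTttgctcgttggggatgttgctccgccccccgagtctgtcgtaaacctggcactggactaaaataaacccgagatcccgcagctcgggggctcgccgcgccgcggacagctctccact
Vgll2: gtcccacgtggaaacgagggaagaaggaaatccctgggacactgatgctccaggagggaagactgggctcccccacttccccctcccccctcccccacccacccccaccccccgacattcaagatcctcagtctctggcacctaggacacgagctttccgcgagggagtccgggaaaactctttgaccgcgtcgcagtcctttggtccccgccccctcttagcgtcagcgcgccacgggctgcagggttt
In the GENCODE annotation on GRCm38, Nkx2-2 spans chr2:147177546-147194243, so its RefSeq window falls inside the annotated gene, while the other stretches shown end at the base before their gene. Motifs were searched on both strands of the 250 bases before the RefSeq start, which for Fezf1, Nkx2-2 and Nkx2-4 run on into an exon annotated by GENCODE and are shown only up to it. CAAGGNCA, the NR5A motif, was in 5.53% of 32851 promoter entries, CACTTGA in 2.68% and ACAATGG in 3.02%, and by gene, with any entry counted, in 6.33%, 3.16% and 3.46%. Of the 62 genes higher in VMH-like neurons, described next, 46 had a promoter entry. The NR5A motif was found in 2 of the 46 (4.35%, Fam131c and Rap1gap), the NK2 motif in 1 (Nkx2-2) and the SOX motif in 1 (Nkx2-4). A match is a description of letters and no evidence of binding.

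VMH-like neurons had higher levels of 7 of 14 VMH transcription factor genes tested, and lower levels of 6 of 10 habenula genes tested, than the other 3455 neurons. UMIs were pooled over the cells of a group and scaled to a total of 1000000 (CPM). A gene was called higher or lower when its levels differed over 2-fold, with at least 20 UMIs and a UMI in at least 10% of cells in the higher group. By this rule 62 of 12298 genes tested (0.504%) were higher and 99 (0.805%) were lower, with a median log2 ratio of -0.05 over all of them. The list of VMH transcription factors holds 16 genes. Of the 14 tested 1 was called lower, and their median log2 ratio was 1.12.

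Sox14, a SoxB2 factor, was found in 57.5% of VMH-like neurons and 9.90% of other neurons, at 245 CPM (226 to 265) against 43.9 CPM (40.4 to 47.7), a 5.58-fold difference. Nr2f2, the nuclear receptor COUP-TFII, stood at 489 CPM (462 to 517) against 148 CPM, 3.30-fold higher. Its relative Nr2f1 was 2.1-fold higher, at 79.5 against 37.8 CPM. Vgll2, a cofactor of TEAD factors, gave the highest ratio of any gene called, 99.3 against 8.54 CPM or 11.6-fold. It had no UMI in 484 of the 551 VMH-like neurons. The homeodomain genes Nkx2-2 (63.1 against 6.75 CPM, 9.34-fold) and Nkx2-4 (35.8 against 8.46 CPM, 4.24-fold) were higher as well. Vgll2, Nkx2-2, Nkx2-4 and Nr2f2 are leading genes of cluster 1, described below. Over all cells of clusters 1, 6 and 8, Nr2f2 was at 881, 144 and 53.9 CPM. Nkx2-2 was in 22.7%, 1.76% and 5.81% of these cells. Nkx2-1, which patterns the ventral hypothalamus, was 2.24-fold higher, and the LIM-only gene Lmo3 2.51-fold. Lmo4 (272 against 153 CPM) fell short of the rule on fold, and Nr0b1, the nuclear receptor DAX1 (23.0 against 6.21 CPM, in 8.89% of VMH-like neurons), on cells. Nhlh2, a basic helix-loop-helix factor of Pomc and Kisspeptin neurons, was the factor called lower, at 147 against 392 CPM. Among the neuron clusters described below, Nhlh2 was at 593 to 1723 CPM in clusters 2, 7, 9, 12 and 14. In these clusters Zic1 was at 672 to 1065 CPM and Pou4f1 at 502 to 1655 CPM. Nhlh2 was at 1536 CPM in cluster 17, led by Gm28040 and Tac2. Against other Nkx2-1-positive neurons it was not called lower. Foxp2 was at 99.7 against 109 CPM, with a log2 ratio of -0.13 (-0.33 to 0.07).

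**Figure D1:**
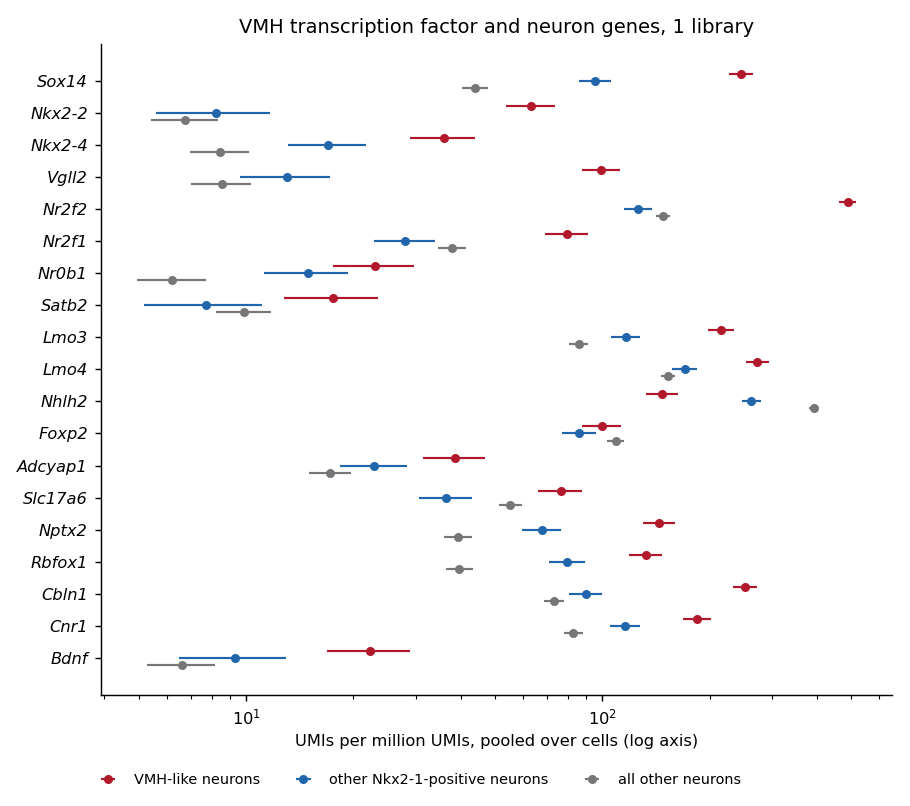
Level of VMH transcription factor and neuron genes in VMH-like neurons, other Nkx2-1-positive neurons and all other neurons, in CPM on a log axis, with exact Poisson 95% intervals as bars (counting error only, 1 library). Sox14, Nkx2-2, Vgll2 and Nr2f2 of VMH-like neurons lie to the right of both other groups, while Nhlh2 lies to the left.

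The genes that the adult VMH uses to signal were less uniform. Of 19 tested on a list of 23 VMH neuron genes, 5 were higher and 4 lower, with a median log2 ratio of 0.47. Adcyap1, which encodes the peptide PACAP, was found in 14.9% of VMH-like neurons and 5.50% of the others, at 38.6 against 17.2 CPM (2.24-fold). With cells thinned to 2000 UMIs the shares were 5.72% (3.92% to 8.02%) and 2.99% (2.44% to 3.63%). When Fezf1 and Nr5a1 were thinned too, Adcyap1 was in 5.15% (2.69% to 8.82%) of neurons under the Pomc limit with Fezf1 and 3.36% (2.78% to 4.02%) without it, and in 4.24% (1.72% to 8.55%) with Nr5a1 and 3.44% (2.86% to 4.1%) without it, intervals that overlap. Cbln1, a secreted synapse organizer, was in 56.4% against 14.8% of cells and 3.43-fold higher. The pentraxin Nptx2 (3.66-fold), the splicing factor Rbfox1 (3.34-fold) and the cannabinoid receptor Cnr1 (184.6 against 83.0 CPM, 2.23-fold) were higher too. The genes called lower were Cbln2 (37.8 against 425 CPM), the Notch-related Dlk1 (278 against 679 CPM), the tachykinin precursor Tac1 (37.4 against 84.4 CPM) and Rprm (46.0 against 112 CPM). Bdnf, the neurotrophin, was at 22.2 against 6.60 CPM, but only 7.08% of VMH-like neurons had a UMI of it.

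Transmitter genes were at low counts in VMH-like neurons. Slc17a6, the vesicular glutamate transporter, was at 76.3 against 55.2 CPM (log2 ratio 0.47, 0.23 to 0.70) and in 28.9% against 16.1% of cells. Gad1 (4.28 against 17.8 CPM), Gad2 (5.45 against 25.6 CPM) and Slc32a1, the vesicular GABA transporter (2.73 against 26.4 CPM), were each in under 10% of cells of either group. Th, the dopamine-synthesis enzyme, had 4 UMIs in VMH-like neurons. Of 10 transmitter genes tested none was called in either direction, and their median log2 ratio was -1.47. Summed over the 16 genes of the list, levels were at 143 against 207 CPM. A gene could be tested through its UMIs in the larger group of other neurons alone, which favours genes higher there.

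Some genes of the habenula, thalamus and ARC were lower in VMH-like neurons. Of 10 habenula genes tested 6 were lower and none higher (median log2 ratio -2.72), and of 11 thalamus genes 4 were lower and 1 higher (median -1.01). Summed thalamus genes were at 829 against 1612 CPM, with a UMI in 85.5% and 84.5% of cells. Pou4f1, a factor of habenular neurons, was at 26.1 against 373 CPM, 14.3-fold lower, and Zic1, a zinc finger factor of dorsal brain, at 52.2 against 408 CPM. The thalamic factor Tcf7l2 was 2.87-fold lower, while Sox2 was 2.4-fold higher. Of 22 ARC genes tested, Otp (37.0 against 196 CPM) and Tbx3 (11.7 against 51.8 CPM) were called lower and none higher, with a median of -2.37. On the list of other hypothalamic regions, 7 of 18 genes were tested and Lhx9 was called lower (median -1.29). These lists describe what the comparison group holds as much as VMH-like neurons, since that group spans habenular, thalamic and ARC neurons.

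Against the 935 other neurons with an Nkx2-1 UMI, a group closer in origin, 33 of 9913 genes (0.333%) were higher in VMH-like neurons and 29 (0.293%) were lower, with a median log2 ratio of -0.01. Nkx2-1 chose this comparison group and is not read here. Of 13 VMH transcription factors tested 5 were higher (Sox14, Nr2f2, Nr2f1, Nkx2-2 and Vgll2) and none lower, with a median of 0.89. Sox14 was at 245 against 95.5 CPM, a ratio of 2.57 that is smaller than against all neurons, and was detected in 22.7% of the other Nkx2-1-positive neurons. Nr2f2 (489 against 126 CPM, 3.89-fold), Nkx2-2 (7.65-fold) and Vgll2 (7.62-fold) kept ratios above 3. Of 16 VMH neuron genes tested, Slc17a6 (76.3 against 36.4 CPM, 2.1-fold), Nptx2 (2.13-fold) and Cbln1 (2.80-fold) were called higher and Dlk1 (3.13-fold) lower. Adcyap1 was at 38.6 against 22.9 CPM, with a log2 ratio of 0.75 (0.32 to 1.19), and was not called.

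ARC factors gave the lowest ratios in this comparison. Tbx3, a T-box factor, was at 11.7 against 106 CPM (9.10-fold lower), and its antisense gene Tbx3os1 at 3.51 against 59.3 CPM. Strand use in counting is not given in the sources used here, so reads of this pair may be mixed. Cited1, a transcriptional co-regulator, was 8.60-fold lower, the homeodomain genes Hmx2 and Otp 8.65-fold and 5.06-fold, and the LIM-homeodomain gene Isl1 2.53-fold. Of 21 ARC genes tested 5 were lower and none higher (median -2.34). Habenula (0 of 6) and thalamus (0 of 9) genes had no calls against these neurons.

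Some genes of axon guidance, excitability and maturation were called as well. Of 41 axon guidance and adhesion genes tested against all other neurons, the Slit receptor gene Robo2 (121 against 42.1 CPM) and the cadherin gene Cdh4 (116 against 31.5 CPM) were higher, and Robo1, Epha7, the semaphorin co-receptor Nrp2 (32.7 against 136 CPM) and the adhesion gene Cntn2 were lower. Against other Nkx2-1-positive neurons, Cdh4 was 3.91-fold higher and Nrp2 2.19-fold lower, the only calls on that list. Of 27 ion channel genes tested against all other neurons, the calcium channel subunit gene Cacna2d1 was called (2.68-fold higher), with a list median of -0.01. Glra2, the glycine receptor subunit of immature neurons, was 3.44-fold higher. Of 22 maturation genes the neurofilament genes Nefl (47.5 against 127 CPM) and Nefm were lower, and the median was -0.01. Of 19 progenitor genes Sox2 was higher and Insm1, a factor of newborn neurons, was 4.89-fold lower, and none of 7 cycling genes was called (median -1.33).

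Large differences in the share of cells with a UMI also came from genes that are on none of these lists. Chchd10, a mitochondrial protein gene, was in 74.6% of VMH-like and 27.1% of other neurons (630 against 201 CPM). The annotated transcript Gm2694 was in 83.1% against 31.4% of cells, and S100a10, a calcium-binding family member, in 53.9% against 20.2%. The metallothionein gene Mt1 was 4.43-fold higher, at 154 against 34.8 CPM.

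Peptide precursor and receptor genes ranged from hardly detected to widespread in VMH-like neurons. Of 23 peptide precursor genes tested, Adcyap1 and Cbln1 were higher, Tac1 and Cbln2 were lower, and the median log2 ratio was -1.0. Pdyn, the dynorphin precursor, was at 21.8 against 9.08 CPM in 8.89% against 3.01% of cells and missed the rule on cells. Avp held 452 UMIs, but only 1.27% of VMH-like neurons had a UMI of it. Of 13 steroid and metabolic receptor genes tested Cnr1 alone was called. Thra, the thyroid hormone receptor, was in 90.2% of VMH-like neurons (673 against 483 CPM), whereas Lepr (2.73 CPM) and Pgr (2.73 CPM) were near the limit of detection.

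Some markers of other cell types were found with VMH-like neurons. Summed fibroblast markers were at 84.5 CPM in VMH-like neurons, 24 of which had a UMI of them, against 23.4 CPM in other neurons, and at 7.18 CPM without the 7 VMH-like neurons of a cluster led by Dcn, Rgs5 and Cldn5. Pdgfra was at 0 in VMH-like neurons, as were Tek, Acta2, Cspg4, Alas2 and Gh on the lists that follow, and every other marker of these lists had a UMI. Summed macrophage markers were at 31.2 against 11.6 CPM, pituitary markers at 89.6 against 87.7 CPM, endothelial markers at 14.02 against 27.5 CPM, mural markers at 12.1 against 16.0 CPM and erythroid markers at 236 against 275 CPM. No gene of these lists was called, and their part in the results was not tested. In the VMH-like neurons of the clusters 1, 6 and 8 described below, fibroblast markers stood at 4.90, 6.74 and 8.32 CPM and pituitary markers at 18.8, 22.5 and 16.6 CPM. In the 75 VMH-like neurons outside these clusters they stood at 489.6 and 454 CPM, with macrophage markers at 179.996 CPM, habenula genes at 653 CPM and ARC genes at 998 CPM, with a UMI in 66.7% of cells. ARC genes were at 194, 234 and 452 CPM in the VMH-like neurons of clusters 1, 6 and 8 (in 36.3%, 57% and 74.1% of cells), at 379.8 CPM in all VMH-like neurons and at 1135 CPM in other neurons.

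The levels of other genes differed between neurons with and without a UMI of Fezf1 or Nr5a1. Among neurons under the Pomc limit, 3192 had none, 305 had 1, 127 had 2 and 119 had at least 3. Sox14 was at 43.2, 229, 272 and 255 CPM in that order, and was found in 9.30%, 51.5%, 64.6% and 65.5% of cells. The step lay between 0 and 1 UMI, and the levels with 1, 2 and at least 3 UMIs lay close together. Nr2f2 went on upward, at 161, 392, 548 and 651 CPM. Vgll2 was at 9.44, 73.0, 126 and 132 CPM, and Nkx2-2 at 6.85, 52.5, 76.9 and 73.6 CPM. Zic1 was lower in cells with a UMI, with 449, 75.9, 23.9 and 26.2 CPM. Depth moved with this order, from a median of 3283.5 UMIs at 0 to 3896, 4189 and 4458, and its part in the result was not tested. At the Stmn2 limit, 12 VMH-like neurons had 2 UMIs, and 11 cells with a Fezf1 or Nr5a1 UMI and under 3 Pomc UMIs had 1. At the Pomc limit, 12 VMH-like neurons had 2 UMIs and 12 neurons with a Fezf1 or Nr5a1 UMI had 3. Sox14 was at 181 CPM with 2 Pomc UMIs and at 129 CPM with 3. It had no UMI in the 12 VMH-like neurons with 2 Stmn2 UMIs (3 UMIs would have been 87.5 CPM) and was at 94.8 CPM in the 11 cells with 1.

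**Figure D2:**
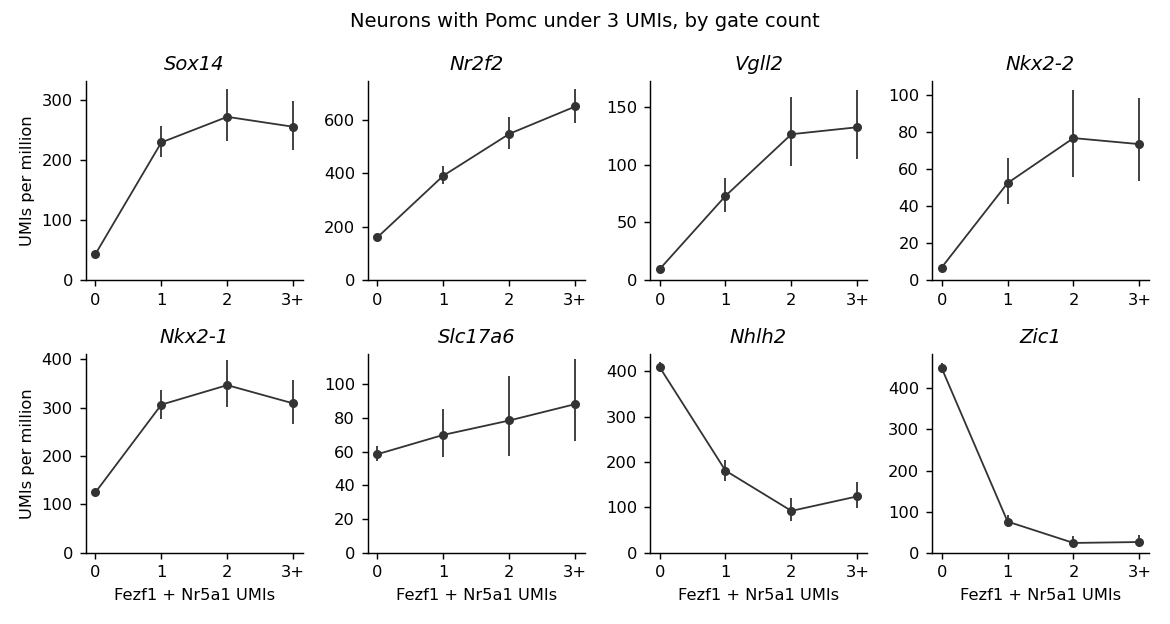
Level of 8 genes (in CPM, exact Poisson 95% intervals as bars) in neurons with 0, 1, 2 or at least 3 UMIs of Fezf1 and Nr5a1 together, all with Pomc under 3 UMIs. Sox14 goes from 43.2 to 229 between 0 and 1 UMI and Zic1 from 449 to 75.9, while Nr2f2 is higher at each step.

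Nr5a1 was detected more often in neurons with Fezf1 than in those without it. Among the 3743 neurons under the Pomc limit, Nr5a1 was detected in 26.7% (22.2% to 31.6%) of the 356 cells with Fezf1 and in 5.76% of the cells without it. In the 3627 of these neurons deep enough to be thinned to 2000 UMIs a cell, the shares were 12.4% and 4.01%. Sox14 was found in 59.0% of Fezf1-positive and in 59.0% of the 290 Nr5a1-positive neurons, so it did not separate the genes of the rule. Nr2f2 was in 70.5% of Fezf1-positive and 47.9% of Nr5a1-positive neurons and Nkx2-2 in 21.9% and 9.66%, whereas the intervals of Vgll2 overlapped, at 16.6% (12.9% to 20.9%) and 9.31% (6.23% to 13.3%), in sets that share the 95 cells with both genes.

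VMH-like neurons with Fezf1 alone and with Nr5a1 alone differed in many genes. Between these 261 and 195 cells, 76 of 6683 genes (1.14%) were higher with Fezf1 and 76 (1.14%) were higher with Nr5a1, with a median log2 ratio of 0.03. With at least 2 UMIs of the gene the counts were 258 and 34, and within cluster 1, described below, they were 403 and 2. Median depth was 3968 and 4229 UMIs. Nkx2-2 (98.3 against 14.8 CPM, 6.63-fold), Nkx2-4 (53.0 against 11.6 CPM), Vgll2 (138 against 34.9 CPM), Nr2f1 (110 against 32.8 CPM) and Nr2f2 (633 against 217 CPM) were higher with Fezf1. Of 12 VMH transcription factors tested 4 were thus higher with Fezf1 and 1, Foxp2, with Nr5a1, while Nkx2-4 is on no list. Cdh4 (4.34-fold) and the netrin receptor gene Unc5c (4.13-fold) were higher on the same side.

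Cells with Nr5a1 alone had more transcripts of another set of factors. Foxp2, a forkhead factor, was at 35.9 CPM with Fezf1 and 196 CPM with Nr5a1, 5.46-fold apart. The SoxB genes Sox3 (5.13 against 45.5 CPM) and Sox21 (6.84 against 52.9 CPM), the zinc finger genes Bcl11b (47.0 against 206 CPM) and Prdm12 (12.8 against 54.0 CPM) and the forebrain homeodomain genes Six3 (223 against 453 CPM) and Six6 (61.5 against 191 CPM) lay on that side, as did S100a10 (262 against 617 CPM). Of 7 ARC genes tested 3 were higher with Nr5a1 (Prdm12, Sox21 and Prox1) and none with Fezf1. Of 26 axon guidance genes 4 were higher with Fezf1 (Unc5c, Cdh4, Pcdh7 and Pcdh19) and 3 with Nr5a1 (Unc5d, Nrp1 and Cdh7). Within cluster 1 the direction turned for Six3, Six6, Unc5d, Nrp1 and Cdh7 (log2 ratios of 0.11, 0.60, 1.19, 0.65 and 0.51), and with at least 2 UMIs for Prox1 (0.0598).

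Several VMH genes showed no call between these cells. Sox14 was at 230 with Fezf1 and 258 CPM with Nr5a1, a log2 ratio of -0.17 (-0.42 to 0.09). Slc17a6 was at 70.1 and 70.9 CPM (log2 ratio -0.02, -0.50 to 0.47), and Adcyap1 at 38.5 and 42.3 CPM (-0.14, -0.79 to 0.51). Nkx2-1 (312 and 345 CPM) and Lmo3 (199 and 212 CPM) were close too. Markers of pituitary cells, some of which use Nr5a1, summed to 31.6 CPM with Fezf1 and 191 CPM with Nr5a1, and fibroblast markers to 124 and 13.8 CPM. Their part in the result was not tested.

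The subdivision followed clusters of neurons. All 4006 neurons were clustered on variable genes without Fezf1, Nr5a1, Stmn2 and Pomc, which gave 21 clusters, named here by number. Cluster 1, led by Vgll2, Nkx2-2, D430036J16Rik, Nkx2-4 and Nr2f2, held 454 cells, of which 295 (65.0%) were VMH-like. Cluster 6, led by Prdm13, Fst, Nr0b1, Serpine2 and Sox14, held 284 cells with 100 VMH-like (35.2%), and cluster 8, led by H2-Ab1, Cnih3, Fam184b, Rasgrf2 and S100a10, held 241 with 81 (33.6%). Over all cells of cluster 8, Pomc was at 907 CPM and found in 51.5% of cells. There Isl1 was at 313 CPM (62.2% of cells) and Tbx3 at 59.7 CPM (22.4%). Pomc, Isl1 and Tbx3 were at 49.9, 112 and 2.22 CPM in cluster 1, and at 89.5, 33.5 and 10.3 CPM in cluster 6. Clusters 1 and 6 together took 71.7% (67.7% to 75.4%) of the VMH-like neurons. The 75 outside clusters 1, 6 and 8 were spread over other clusters, among them 15 in a cluster led by Ass1, Fli1 and Sox21 and 14 in a cluster led by the cell division genes Hmmr, Nusap1 and Cdc20.

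Of the cells with Fezf1 alone, 73.6% were in cluster 1. Of the cells with Nr5a1 alone, 15.4% were in cluster 1, 37.9% in cluster 6 and 27.2% in cluster 8. The cells with both genes went with Fezf1, 76.8% of them in cluster 1. Fezf1 and Nr5a1 did not enter the clustering, but clusters are built from the other genes, so the levels that follow describe the clusters and are no separate finding.

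**Figure D3:**
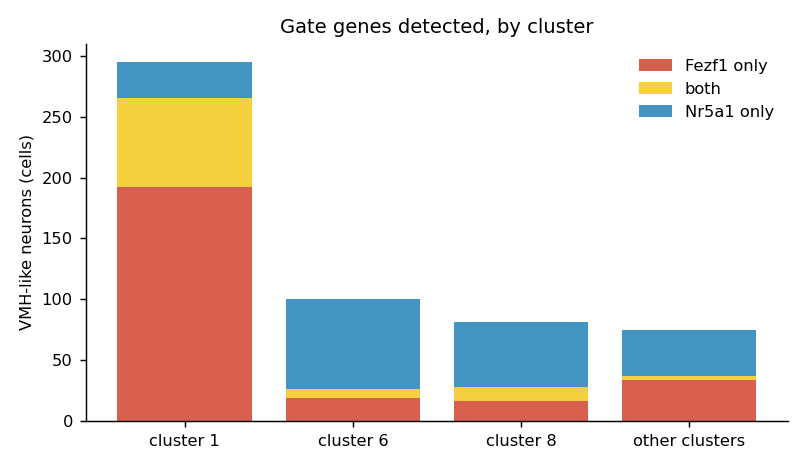
Number of VMH-like neurons with Fezf1 alone, Nr5a1 alone or both (stacked bars, cells) in clusters 1, 6 and 8 and in all other clusters. Cluster 1 holds 192 cells with Fezf1 alone and 30 with Nr5a1 alone, cluster 6 holds 19 and 74, and cluster 8 holds 16 and 53.

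In the VMH-like neurons of clusters 1, 6 and 8, Nr2f2 was at 832, 151 and 72.8 CPM. Vgll2 was at 188 CPM in cluster 1, 29.2 in cluster 6 and 0 in cluster 8, where 3 UMIs would have been 6.24 CPM. Foxp2 had the reverse order, with 26.9, 199.99 and 208 CPM. Sox14 was highest in cluster 6, at 226, 501 and 175 CPM, and the LIM-only genes parted clusters 6 and 8, with Lmo4 at 269, 497 and 97.8 CPM and Lmo3 at 207, 108 and 458 CPM. Adcyap1 was at 35.1, 53.9 and 58.3 CPM, and Slc17a6 at 92.2, 69.7 and 72.8 CPM. Median depth was 3798, 3938.5 and 6029 UMIs.

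The other neurons of these clusters, without a UMI of Fezf1 or Nr5a1 or with more Pomc, kept the order of the clusters for Sox14, Nr2f2, Vgll2, Lmo3, Lmo4 and Adcyap1, and not for Foxp2 and Slc17a6. Sox14 was at 174, 354 and 84.6 CPM in them, Nr2f2 at 984.5, 139 and 43.9 CPM, and Vgll2 at 133, 18.1 and 1.10 CPM, while Foxp2 was at 27.6, 179.8 and 157 CPM and Slc17a6 at 81.0, 71.1 and 45.03 CPM. Their median depth in cluster 1 was 3383 UMIs, below that of the VMH-like cells there. A cell in which neither Fezf1 nor Nr5a1 was captured cannot be told apart from a cell that lacks them.

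Within cluster 1 alone, 192 cells with Fezf1 alone could be set against 30 with Nr5a1 alone. There the log2 ratio of Nkx2-2 was 0.22, against 2.73 over all VMH-like neurons, and those of Nkx2-4 and Cdh4 were 0.28 and 0.32, against 2.19 and 2.12. The ratios of Vgll2 (1.99 to -0.27), Nr2f1 (1.75 to -0.53) and Nr2f2 (1.54 to -0.48) changed sign, as did S100a10 (-1.24 to 1.28). Foxp2 (-2.45 to -1.37), Bcl11b (-2.13 to -1.23), Prdm12 (-2.07 to -1.49) and Unc5c (2.05 to 1.32) stayed over 2-fold apart in the same direction. With 30 cells on that side, the values there rest on few molecules.

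**Figure D4:**
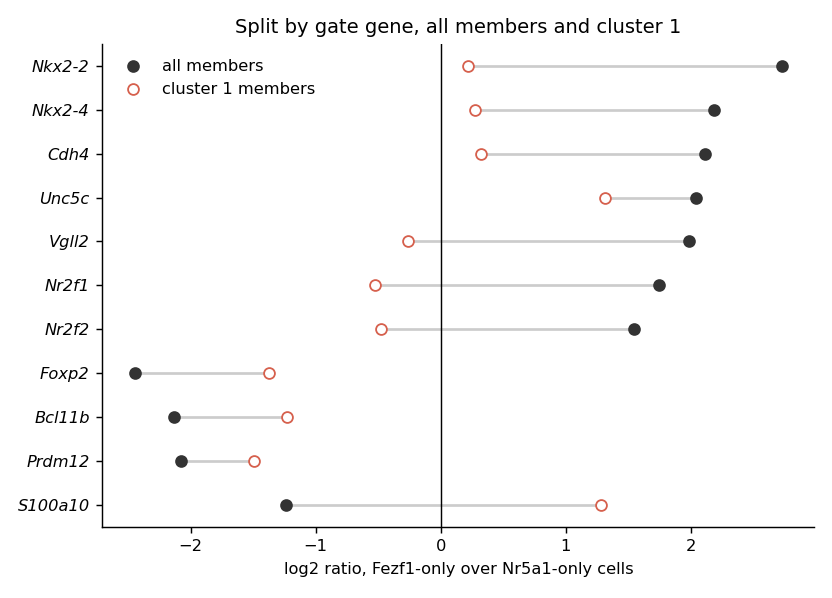
Log2 ratio of levels in cells with Fezf1 alone over cells with Nr5a1 alone, for all VMH-like neurons (filled points) and for those of cluster 1 (open points), with a line joining the values of each gene. Nkx2-2 goes from 2.73 to 0.22 and Nr2f2 from 1.54 to -0.48, while Foxp2 stays at or below -1.37.

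By detection of Sox14, the VMH-like neurons were split into 317 positive and 234 negative cells. A negative cell cannot be told apart from a cell in which Sox14 was not captured. Its share was 57.5% (53.3% to 61.7%) and 35.8% after thinning, without the 9 cells too shallow for it. Of the VMH-like neurons 156 had 1 Sox14 UMI, 91 had 2 and 70 had at least 3, with a highest count of 15. The share was 55.9% with Fezf1 alone, 54.9% with Nr5a1 alone and 67.4% with both, and 35.7%, 35.1% and 37.6% after thinning. It was 22.7% in other Nkx2-1-positive neurons (14.3% thinned), 9.90% in all other neurons (6.52% thinned) and 1.15% in vascular and mesenchymal cells. The source of the Sox14 UMIs in vascular and mesenchymal cells was not tested. By cluster, 56.3% of the VMH-like neurons of cluster 1, 80.0% of cluster 6 and 60.5% of cluster 8 were positive.

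**Figure D5:**
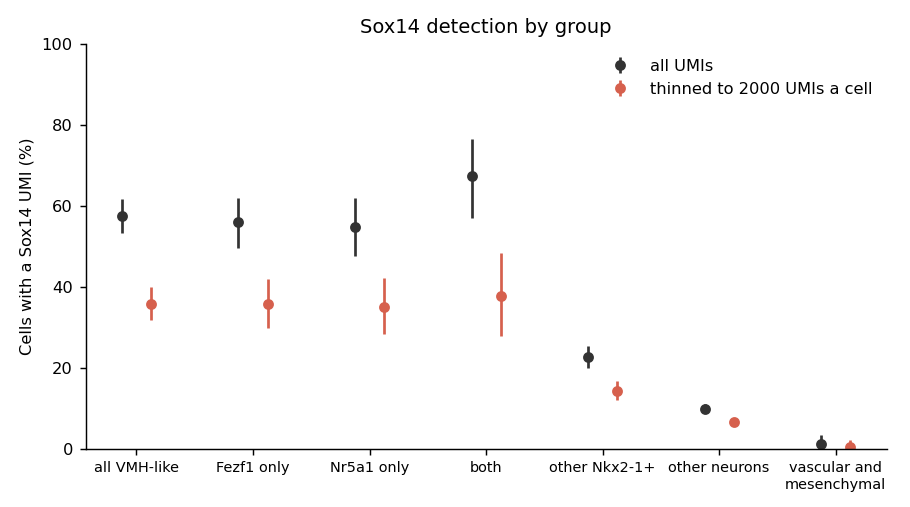
Percent of cells with a Sox14 UMI in each group, before (black) and after (red) thinning each cell to 2000 UMIs, with exact binomial 95% intervals as bars. All VMH-like groups lie between 54.9% and 67.4% before thinning, other Nkx2-1-positive neurons at 22.7% and vascular and mesenchymal cells at 1.15%.

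Sox14-positive and Sox14-negative VMH-like neurons differed in a set of genes whose size moved with the limits used. Of 7335 genes tested 22 (0.300%) were higher in positive cells and 27 (0.368%) were lower, and Sox14 itself is not read here. The counts were 185 and 11 in VMH-like neurons with at least 2 Fezf1 and Nr5a1 UMIs, and 136 and 16 in those with both genes. Median depth was 4427 UMIs in positive and 3725.5 in negative cells. Of 11 VMH transcription factors tested, Vgll2 was lower in positive cells (68.7 against 145 CPM) and none was higher. Vgll2 was carried by few cells, with 95.3% of its UMIs in the 55 VMH-like neurons that had the most. Of 14 VMH neuron genes, the orphan receptor gene Gpr149 was higher (25.9 against 9.76 CPM).

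The other genes that parted Sox14-positive from Sox14-negative cells were mostly at low levels. The metalloproteinase gene Mmp11 was higher in positive cells, at 27.2 against 9.76 CPM. Zic1 was lower, at 20.7 against 99.6 CPM (4.8-fold), and so were the calcium-binding gene Necab2 (31.8 against 86.9 CPM), the factor Klf4 (22.03 against 56.6 CPM), the growth factor Mdk (43.4 against 98.6 CPM) and the progenitor gene Fabp7 (35.0 against 76.1 CPM). Summed habenula genes were at 77.8 and 230 CPM in positive and negative cells, pituitary markers at 42.1 and 161 CPM, fibroblast markers at 62.9 and 117 CPM and ARC genes at 244 and 585 CPM. Their part in the result was not tested. Among the 95 cells with both Fezf1 and Nr5a1 the direction of Zic1, Klf4, Mdk, Gpr149 and Mmp11 was reversed, as was that of Necab2 (log2 ratio 0.36) and Zic1 with at least 2 Fezf1 and Nr5a1 UMIs, and a limit of 50 UMIs and 20% of cells left 0 genes higher and 1 lower. Of the negative cells 22.6% lay outside clusters 1, 6 and 8, against 6.94% of the positive cells.

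Most VMH genes had no call between Sox14-positive and Sox14-negative cells. Nr2f2 was at 443 and 559 CPM (log2 ratio -0.34, -0.50 to -0.17), Nkx2-1 at 359 and 252 CPM (0.51, 0.30 to 0.73) and Slc17a6 at 86.8 and 60.5 CPM (0.52, 0.08 to 0.98). Nkx2-2 was at 64.2 and 61.5 CPM, Lmo3 at 223 and 204 CPM, and Adcyap1 at 40.2 and 36.1 CPM (0.15, -0.46 to 0.78). Bdnf was at 30.5 and 9.76 CPM and in 9.78% of positive cells, just under the limit on cells.

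Sox14 was also found in neurons that were hardly VMH-like. In a cluster of 76 cells led by Gm28040 and Tac2, 52.6% had a Sox14 UMI (259 CPM), and 1 of these cells was VMH-like. Nhlh2 was at 1536 CPM and Tbx3 at 236 CPM in that cluster, against 147 and 11.7 CPM in VMH-like neurons. Kiss1 had no UMI in any of the 4006 neurons, which allows up to 0.0749% of neurons with a UMI.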

How the data were processed

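Single cells of 1 pooled library were measured by droplet RNA-seq, and its 4 runs were taken as 1 sample. The authors deposited raw counts of UMIs for 27998 genes in 6465 barcodes (26277265 UMIs), without normalization, and cells cannot be traced to runs or embryos. The submitters' processing notes name Cell Ranger 2.1.1, STAR 2.4.0, Seurat 2.0 and mm10, the study's methods name a Cell Ranger mm10 reference package, which carries the gene annotation, and strand use is not given in the sources used here.

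Barcodes with 200 to 4500 genes, at most 10% mitochondrial UMIs and at most 10 Hba-a1 UMIs were kept. This removed 114 barcodes, of which 63 had over 4500 genes, 10 had too many mitochondrial UMIs and 42 too many Hba-a1 UMIs (a barcode can fail on several), and 3 of the 114 met the other limits for VMH-like neurons. Kept cells held 1748 to 16836 UMIs. The study states the same limits for the same number of barcodes but kept fewer cells, and the reason for the difference was not tested. Of the cells kept here, 1311 had over 5% mitochondrial UMIs. No doublet caller was run, and an alternative leaves out the 5% of cells with the most UMIs. Vascular and mesenchymal cells had at most 1 Stmn2 UMI and at least 3 summed fibroblast, endothelial and mural marker UMIs.

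UMIs were pooled per group as CPM with exact Poisson 95% intervals, and log2 ratios have conditional exact binomial intervals. Cells of 1 library are not replicates and genes in a cell share its depth, so there are no tests, p-values or standard errors. A gene was tested with at least 20 UMIs in either group. Comparison groups of neurons held more UMIs than VMH-like neurons, so list medians can rest on genes that reached this limit only there. The call rule was also run on simulated counts in which the cells of a group differed only in depth and counting error. It was therefore not tested on groups that mix cell types. Thinning drew 2000 UMIs per cell (seed 1), leaving out 9 VMH-like, 33 other Nkx2-1-positive, 112 other neurons and 12 vascular and mesenchymal cells. Clusters used scanpy 1.11.5 (log-normalized to 10000, 2000 variable genes, 30 components, 15 neighbours, Leiden resolution 1). The remaining steps ran in Python 3.11.15 (scipy 1.17.1 for intervals, numpy 2.4.6 and pandas 2.3.3 for sums, matplotlib 3.10.9 for plots).

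VMH-like neurons, the gene lists and the comparisons were chosen with earlier results of these data known. Genes are named if they are markers of the rule, on a list, among the 25 highest or 15 lowest against other neurons, the 15 highest or 10 lowest against other Nkx2-1-positive neurons, the 15 highest or lowest by Sox14, or among 5 leading genes of a cluster. Other genes (among them those of the Fezf1 and Nr5a1 comparison) were named after their values were seen. A few named genes are not reported here.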

Additional observations from a re-analysis of the deposited data

Results flagged for a closer look

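Outside the rule, 49 of the 2345 kept cells with fewer than 2 Stmn2 UMIs had a UMI of Fezf1 or Nr5a1 (2.09%, 1.55% to 2.75%), a signal in cells that were neither VMH-like nor comparison neurons. Of these cells 3 are the vascular and mesenchymal cells with a Fezf1 UMI. Fezf1 was found in 29 and Nr5a1 in 21 of them. A UMI of the pituitary genes Pitx1 or Cga was found in 14 of the 21 Nr5a1-positive and 5 of the 29 Fezf1-positive cells, against 25 of the 551 VMH-like neurons (4.54%). Cga was at 1172 CPM in the 49 cells and 158 CPM in the other cells with so little Stmn2, and Sox14 at 43.8 CPM in the 49 cells.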

How the results depend on the processing

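With 1 pooled library, values describe these cells, and depth limits detection: a gene without a UMI in VMH-like neurons may be at up to 1.17 CPM over the group (3 UMIs), which sets no limit on how many cells express it. Median scaling moved all genes by 0.01, 0.02 and -0.03 on the log2 scale. In the comparison with all other neurons none of 80 named genes changed direction under the alternatives run, although 202 of their log2 ratios moved beyond the counting interval and 998 did not (76 and 538 against other Nkx2-1-positive neurons, where 1 changed direction), and counts with the comparison cells held under 3 Pomc UMIs (67 and 106) or without the 5% of cells with the most UMIs (70 and 100) stayed within 1.5 times of those reported. Alternatives on clusters, on Pomc in the comparison cells and on the Fezf1 and Nr5a1 comparison were chosen after seeing the data.

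The share of neurons that were VMH-like was 6.14% with at least 2 Fezf1 and Nr5a1 UMIs, 2.37% with both genes, 12.1% with Stmn2 of at least 1, 15.8% with Stmn2 of at least 4, 15.2% with no Pomc limit and 10.4% when cells were thinned to 2000 UMIs before the rule. The Sox14 share was 65.0% with at least 2 UMIs, 67.4% with both genes, 35.8% and 38.3% when thinned after or before the rule, 29.2% counting only cells with 2 Sox14 UMIs, and 62.0% in clusters 1, 6 and 8. Clusters with the most VMH-like neurons, taken as a pair, held 86.4% at resolution 0.5 and 53.4% at resolution 2.

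Against all other neurons, a limit of 50 UMIs and 20% of cells gave 39 higher and 35 lower genes, no limit on cells 142 and 870. Lower genes numbered 183 with both genes and 58 when thinned. Against other Nkx2-1-positive neurons the first 2 settings gave 19 higher and 14 lower, and 111 and 294. Levels averaged over cells gave 55 higher, and lower genes numbered 120 with both genes, 49 with Stmn2 of at least 1 and 72 in clusters 1, 6 and 8, while Nefl moved to a log2 ratio of 0.0022 with no Pomc limit.

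By Sox14, higher and lower genes numbered 37 and 41 with at most 5% mitochondrial UMIs, 185 and 11 with at least 2 Fezf1 and Nr5a1 UMIs, 136 and 16 with both genes, 0 and 1 with the limit of 50 UMIs and 20% of cells, 82 and 105 with no limit on cells, 60 and 55 with Sox14 of at least 2, and 39 and 16 in clusters 1, 6 and 8. No Pomc limit gave 11 higher. With both genes 10 named genes changed direction: A230065H16Rik (log2 ratio -0.69), Afg3l2 (-0.21), Gpr149 (-1.43), Klf4 (0.16), Mdk (1.74), Mmp11 (-0.0140), Mtss1l (0.89), Ooep (-0.11), Ptprz1 (1.16) and Zic1 (1.74). With at least 2 UMIs Necab2 (0.36) and Zic1 (0.0758) did, and when thinned Afg3l2 (-0.29).

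Between cells with Fezf1 alone and Nr5a1 alone, higher and lower genes numbered 258 and 34 with at least 2 UMIs, 403 and 2 in cluster 1, 23 and 17 with the limit of 50 UMIs and 20% of cells and 49 and 45 when thinned. With 30 cells on the side of Nr5a1 in cluster 1, few genes could reach 20 UMIs there. In cluster 1 the direction turned for Amigo2 (-0.56), Cadps2 (-0.27), Cdh7 (0.51), E130006D01Rik (-0.18), Fabp7 (-0.23), Nr2f1 (-0.53), Nr2f2 (-0.48), Nrp1 (0.65), S100a10 (1.28), Six3 (0.11), Six6 (0.60), Tmem35 (-0.0285), Unc5d (1.19) and Vgll2 (-0.27), and with at least 2 UMIs for Prox1 (0.0598). The cause of these changes was not tested. No paired analysis was possible because all samples are runs of 1 library.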

Other observations

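A further 58 neurons had a UMI of Fezf1 or Nr5a1 and at least 3 UMIs of Pomc, and were left in the comparison group. Nr5a1 was found in 47 and Fezf1 in 13 of them. Nr2f2 was at 58.7 CPM, Sox14 at 109 CPM and Nkx2-1 at 382 CPM, against 489, 245 and 316 CPM in VMH-like neurons. Their Isl1 (399.5 CPM) and S100a10 (605 CPM) stood above VMH-like neurons (129 and 411 CPM).

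The 75 VMH-like neurons outside clusters 1, 6 and 8 held most of the counts of some peptide genes. Avp was at 1075 CPM in them, in 4% of cells, and Npy at 326 CPM in 6.67%, against 0.816 and 9.79 CPM in cluster 1. Because of these few cells Avp stood at 439 CPM in Sox14-negative and 1.30 CPM in Sox14-positive VMH-like neurons, with a UMI in 2.14% of the negative cells.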
